A study of Mus musculus with 7 samples.

Results

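Oligodendrocyte precursor cells (OPCs) remain able to divide in the adult brain, and the transcripts described here are 41 genes of the cell cycle among the 27998 genes measured. They were taken by symbol from a fixed list and fall into 7 groups, which are 5 genes of the D cyclins and their partner kinases, 3 of the E cyclins and Cdk2, 10 of DNA replication and nucleotide supply, 4 of the A and B cyclins and Cdk1, 14 of mitosis, 2 of chromatin and 3 Cdk inhibitors. All 41 symbols were found. They were followed in the 1304 cells that the authors annotated OPC and the 31 annotated OPC cycling, out of 9291 cells in all, and the remaining clusters served as the comparison.

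Each of 3 droplet libraries held oligodendrocyte lineage cells (OLCs) sorted by a reporter under the control of Sox10, a gene of the whole lineage, from adult mice at P90 (11 to 14 weeks), and dorsal origin was read from Emx1-Cre, which is active in the dorsal forebrain. Control dOLCs were TdTom+ cells and control vOLCs GFP+ cells of Emx1-Cre:Sox10-GFP-TdTom mice. Ectopic vOLCs were GFP+ cells of mice that carried Sox10-GFP-DTA beside Emx1-Cre and Sox10-GFP-tdTom, in which dorsal OLCs were ablated by diphtheria toxin A from the Sox10 construct once Emx1-Cre had acted. All mice were of both sexes on a C57BL/6-B6CBA background and carried Emx1-Cre and the Sox10 reporter, and tissue came from the motor and cingulate cortex by the labels. The 4 control and 2 ablated mice were pooled within a library, so that each condition is 1 library, no test between conditions could be made, and the 95% intervals cover counting error only. Where 3 values are given without names, they stand for control dOLCs, control vOLCs and ectopic vOLCs, in that order.

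Progression through the cell cycle is driven by kinases that need a cyclin partner. D cyclins with Cdk4 or Cdk6 act early in G1, E cyclins with Cdk2 at the entry to S phase, and A and B cyclins with Cdk1 from S phase into mitosis. Many genes of replication are switched on by E2F factors before S phase, whereas genes of mitosis are switched on later through promoter elements known as the CHR and the CCAAT box, and Cdk inhibitors hold cells in G1 or in an arrested state.

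The 31 cycling cells were 17 of the 870 OPCs in control dOLCs (1.95%, exact interval 1.14 to 3.11). Control vOLCs had 3 among 124 (2.42%, 0.502 to 6.91), and ectopic vOLCs had 11 among 341 (3.23%, 1.62 to 5.70). The intervals of the 3 libraries overlapped, so that a difference in the share of cycling OPCs was not detectable at this number of cells. The names of the clusters were checked against markers. The summed level of 6 OPC markers, in UMIs per 1000000 UMIs of the cells (CPM), was 8311, 10296 and 7683 CPM in OPCs and 9812, 13512 and 6941 CPM in cycling OPCs. It lay between 66.9 and 159 CPM in MOL5/6, the mature oligodendrocytes of clusters MOL5/6a to MOL5/6d. Microglial markers were at 0 UMIs in cycling OPCs and at 0 to 2 UMIs per library in OPCs, and mural markers at 0 in cycling OPCs and at 0 to 2 UMIs in OPCs. Astrocyte markers were detected in OPCs and are given below with Ccnd2. Levels of neuronal and endothelial markers are not given here. Markers of mature oligodendrocytes were present in OPCs and higher in control dOLCs, at 4701, 2366 and 2435 CPM. Of the 1335 OPCs, 11 had a barcode that also occurred in another library, and none of the 31 cycling cells did. The median depth was 2795, 3454 and 3421.5 UMIs per cell in OPCs and 3669, 2204 and 4574 in cycling OPCs.

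Promoters are shown because the mitotic and the replication genes, described next, differed in where their transcripts were found. RefSeq promoter windows on GRCm38.p6, from 250 bases before to 50 bases after the transcription start, matched 34 of the 41 genes with 37 windows, and Ccnd1, Ccnd2, Ccne2, Mcm4, Ccna2, Aurkb and Cdkn1c had none. The 160 bases before the start are printed 5′ to 3′ on the strand of the gene, with matches on either strand in capitals for TTTGAA (the CHR), CCAAT, and TTTNNCGC (an E2F-like motif). Top2a (DNA topoisomerase of chromosome separation, chr11:99024190-99024349, minus strand), Cdk1 (chr10:69352913-69353072, minus), Cdc20 (activator of the anaphase-promoting complex, chr4:118437344-118437503, minus) and Ube2c (its ubiquitin-conjugating enzyme, chr2:164769769-164769928, plus) represent the mitotic genes. Mcm5 (chr8:75109349-75109508, plus) and Mcm6 (chr1:128359706-128359865, minus), subunits of the replicative helicase, represent the replication genes.
Top2a: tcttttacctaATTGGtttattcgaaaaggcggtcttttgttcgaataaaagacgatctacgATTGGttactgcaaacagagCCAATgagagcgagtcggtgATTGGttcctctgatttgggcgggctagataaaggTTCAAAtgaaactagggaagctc
Cdk1: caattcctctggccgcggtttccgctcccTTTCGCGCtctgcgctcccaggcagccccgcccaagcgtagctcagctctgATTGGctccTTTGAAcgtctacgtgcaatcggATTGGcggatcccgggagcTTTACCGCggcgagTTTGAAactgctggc
Cdc20: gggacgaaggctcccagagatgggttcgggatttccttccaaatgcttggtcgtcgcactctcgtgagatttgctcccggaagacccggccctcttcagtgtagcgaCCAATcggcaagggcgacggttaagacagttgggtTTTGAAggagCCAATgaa
Ube2c: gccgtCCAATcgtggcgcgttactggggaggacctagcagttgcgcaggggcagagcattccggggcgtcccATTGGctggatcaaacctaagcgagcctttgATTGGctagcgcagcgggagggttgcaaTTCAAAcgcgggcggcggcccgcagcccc
Mcm5: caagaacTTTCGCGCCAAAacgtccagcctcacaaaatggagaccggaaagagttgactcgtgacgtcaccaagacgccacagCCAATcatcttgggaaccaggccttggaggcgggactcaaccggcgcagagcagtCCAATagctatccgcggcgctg
Mcm6: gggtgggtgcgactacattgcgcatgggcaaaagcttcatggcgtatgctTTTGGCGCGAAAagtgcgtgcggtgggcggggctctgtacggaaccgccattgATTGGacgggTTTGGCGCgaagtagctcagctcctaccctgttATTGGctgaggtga
TTTGAA occurred in 11 of the 16 windows of the A and B cyclin, Cdk1 and mitosis genes (68.8%), in 1 of 10 windows of the replication genes (10.0%), in 1 of 11 windows of the remaining genes, and in 17.9% of all 32851 windows of the same length. TTTNNCGC showed the opposite distribution, with 1 of 16 windows of the mitotic genes, 5 of 10 of the replication genes and 5.17% of all windows. The 1 mitotic window was that of Cdk1, printed above, and 2 of 11 windows of the remaining genes had a match. CCAAT was found in 14 of 16 windows of the mitotic, 9 of 10 of the replication and 5 of 11 of the remaining genes, against 37.4% of all. In Mcm5 and Mcm6 a match of TTTNNCGC on each strand overlapped, which gives the longer run of capitals. These are matches of letters and were not tested for binding.

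Transcripts of the 18 A and B cyclin, Cdk1 and mitosis genes, called mitotic genes below, were, among the OPCs, found mostly in the 31 cycling cells. These cells held 2.74% of all UMIs of the OPCs, but 791 of the 938 UMIs of the mitotic genes in OPCs (84.3%). The far more numerous MOL5/6 cells held a further 359, 72 and 181 UMIs of these genes. The share ranged from 66.7% for Bub1b, a spindle checkpoint kinase, to 97.2% for Ccnb2, and its median over the 18 genes was 81.6%. The clusters had been made from the most variable genes of these same cells, which may include the mitotic genes, so that this is a description of the cluster and not a test.

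**Figure D1:**
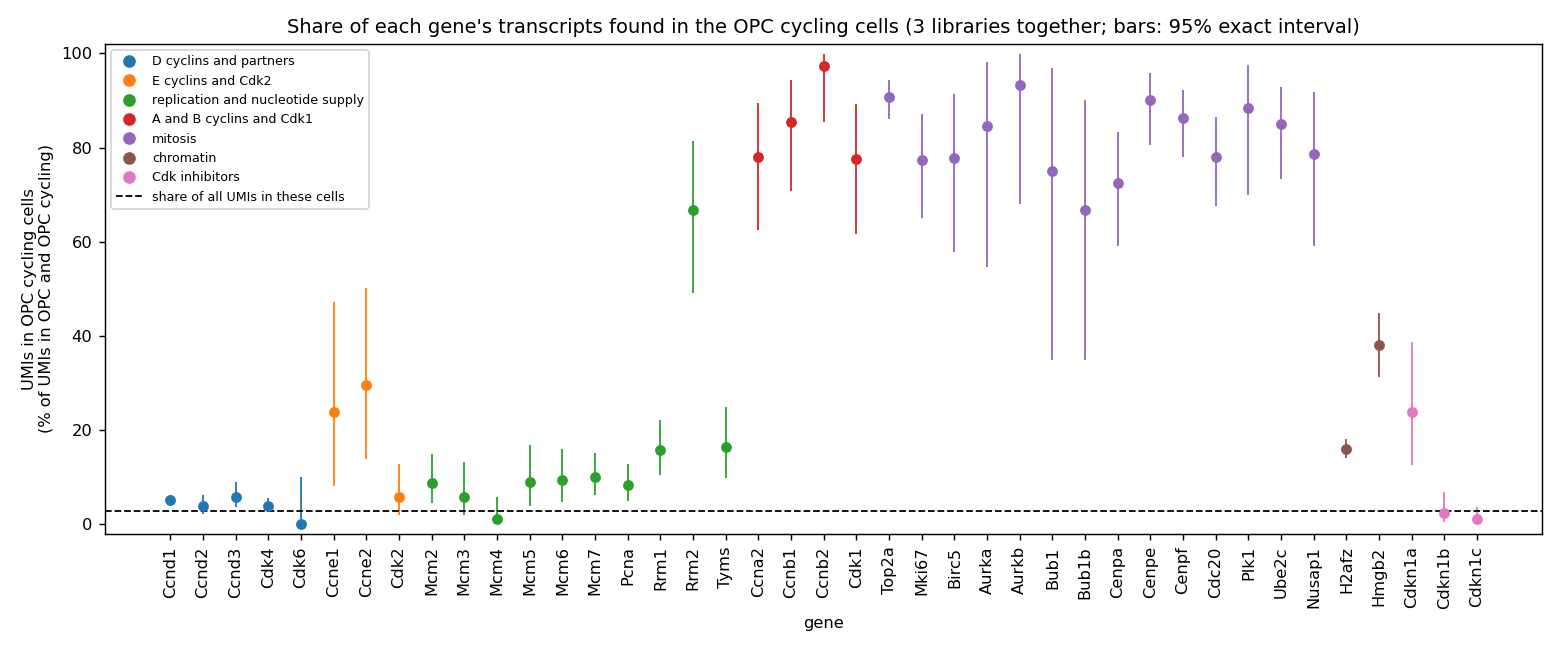
Share of the UMIs of each of the 41 genes that lay in the 31 OPC cycling cells, in percent of its UMIs in OPC and OPC cycling cells of the 3 libraries together, with 95% exact intervals; the dashed line is the 2.74% that these cells hold of all UMIs. The 18 mitotic genes sit at 66.7% or above, whereas the replication genes other than Rrm2 sit at 16.3% or below.

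Top2a had the most UMIs of the mitotic genes. Its level was 1872, 1768 and 1337 CPM in cycling OPCs, against 5.71, 0 and 4.16 CPM in OPCs. A UMI of Top2a was found in 24 of 31 cycling cells and in 15 of 1304 OPCs. All 3 libraries thus had high levels in the cycling cells and at most 15 UMIs in OPCs. Cenpf, a kinetochore protein, was at 842, 758 and 594 CPM in cycling OPCs and between 2.53 and 3.43 CPM in OPCs. Cenpe, the kinetochore motor, was at 811, 126 and 212 CPM in cycling cells, where the value of control vOLCs rested on 1 UMI, and Cdc20 at 671, 631 and 340 CPM. Ube2c was at 546, 253 and 297 CPM. Mki67, the gene of the proliferation marker Ki-67, was at 390, 505 and 403 CPM in cycling OPCs and at 3.43, 2.53 and 3.33 CPM in OPCs. Cenpa, the histone of centromeres, was at 343, 505 and 340 CPM in cycling OPCs and at 4.19, 2.53 and 3.33 CPM in OPCs. Every one of the 7 genes was low in OPCs of all 3 libraries.

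The remaining mitotic genes had fewer than 50 UMIs each. The cyclins Ccna2, Ccnb1 and Ccnb2 and the kinase Cdk1 had 31 to 35 UMIs in cycling OPCs and 1 to 9 in OPCs. Birc5 (survivin), the kinases Aurka, Aurkb, Plk1, Bub1 and Bub1b, and the spindle protein Nusap1 had 6 to 23 UMIs in cycling OPCs and 1 to 6 in OPCs. Ccnb2 was the most restricted of the 41 genes, with a UMI in 24 of 31 cycling cells and in 1 of 1304 OPCs.

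Mitotic transcripts were also found at a low level in OPCs outside the cycling cluster and in mature cells. At least 1 mitotic gene was detected in 9.38%, 3.31% and 11.2% of OPCs, against 8.92%, 11.1% and 9.01% of MOL5/6 cells, which do not divide and had median depths of 3491, 5069 and 5478.5 UMIs. After thinning of the cells to 1000 UMIs, shares were 3.17%, 0.826% and 3.33% in OPCs and 2.86%, 1.96% and 1.95% in MOL5/6. The intervals of OPCs and MOL5/6 overlapped in each library after thinning. At least 2 mitotic genes were found in 12 of 1304 OPCs (0.920%, 0.476 to 1.60) and in 24 of 6180 MOL5/6 cells (0.388%, 0.249 to 0.577). Mki67 was found in 110 of 6180 MOL5/6 cells and Top2a in 18, and no MOL5/6 cell and no OPC had a UMI of both, whereas 18 of 31 cycling cells did. At least 3 mitotic genes were found in all 31 cycling cells, in 2 OPCs and in 1 MOL5/6 cell.

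Replication genes, in contrast, had most of their UMIs outside the cycling cells, with 1078 of 1217 in OPCs and 11.4% in the cycling cells. At least 1 replication gene was found in 38.8%, 47.9% and 48.2% of OPCs and in 38.5%, 52.9% and 48.2% of MOL5/6 cells, which were deeper. Their summed level was 238, 296 and 280 CPM in OPCs and 1232, 631 and 1167 CPM in cycling OPCs, where the value of control vOLCs rested on 5 UMIs. In MOL5/6 it was 132, 152 and 122 CPM. The order from cycling OPCs to OPCs to MOL5/6 was the same in each library.

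**Figure D2:**
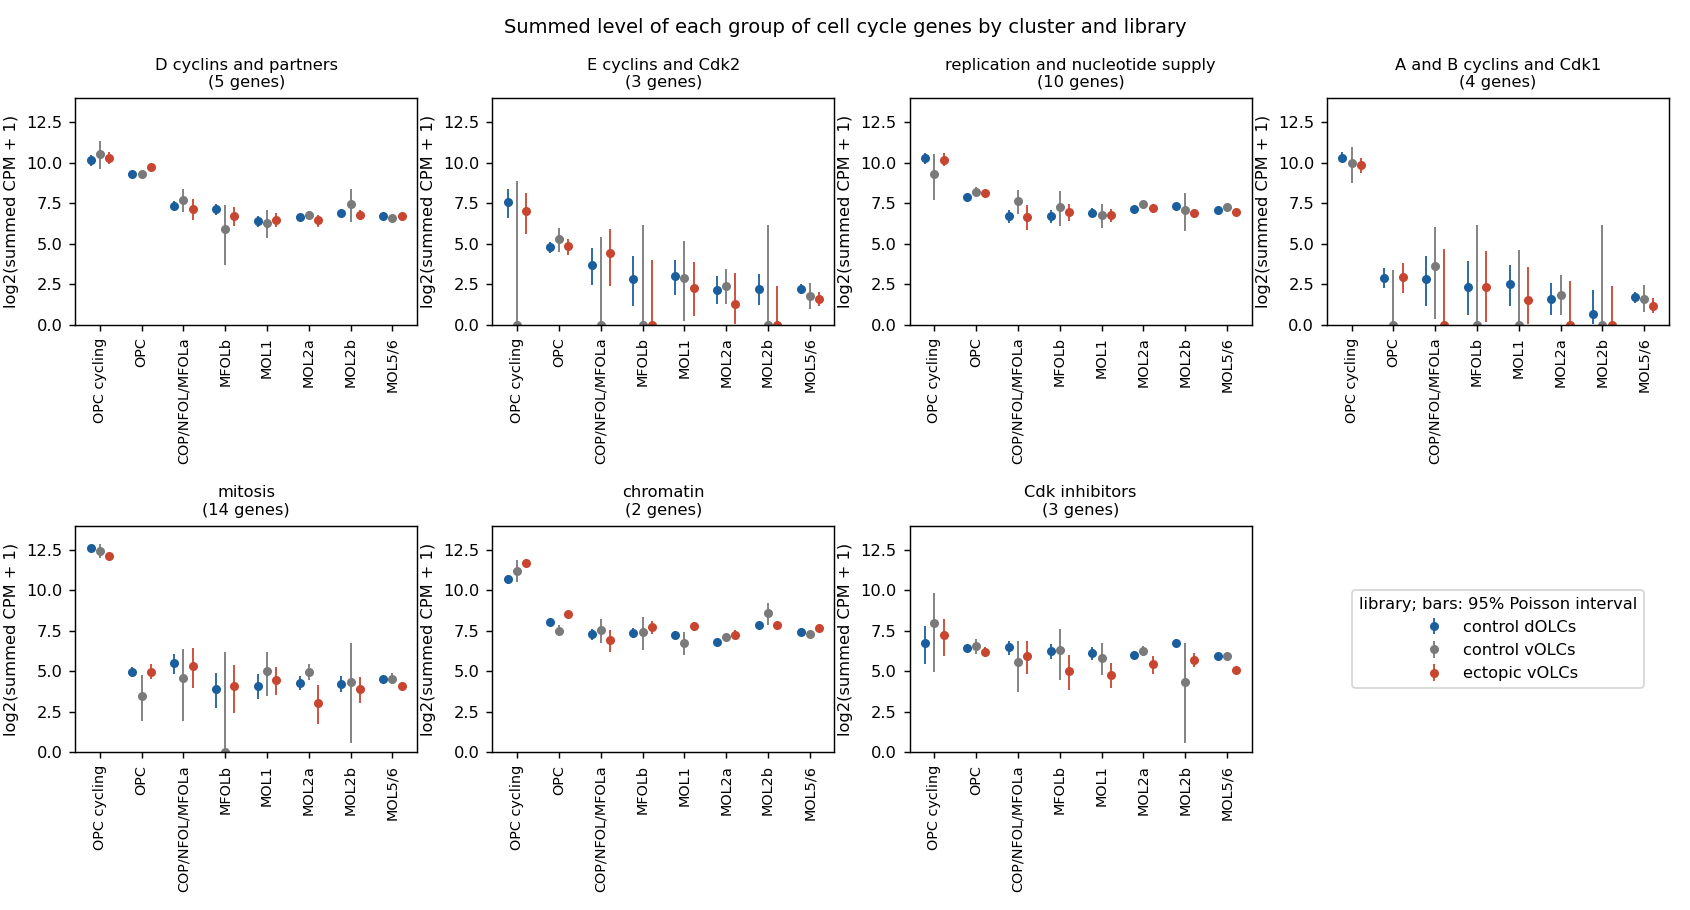
Summed level of each of the 7 groups of genes, as log2(CPM + 1), by cluster along the x axis and library by colour, with 95% Poisson intervals; a point at 0 had no UMI. Mitotic genes and A and B cyclins are high in OPC cycling only, D cyclins are high in OPC cycling and OPC, and Cdk inhibitors are detected in every cluster.

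The 6 genes of the Mcm helicase were each higher in OPCs than in MOL5/6. Mcm2 was at 25.5, 32.9 and 29.9 CPM in OPCs of the 3 libraries and at 5.36 CPM in MOL5/6 of the libraries together. Mcm3 was at 17.1, 15.2 and 24.1 CPM in OPCs and at 6.14 CPM in MOL5/6. Mcm4 was at 22.1, 25.3 and 21.6 CPM in OPCs and had a single UMI in the cycling cells. It was the replication gene with the lowest share there, at 1.05% (0.0266 to 5.73). Mcm5 was at 14.9, 35.5 and 24.1 CPM and Mcm6 at 22.9, 38.0 and 26.6 CPM in OPCs, against 2.75 and 3.88 CPM in MOL5/6. Mcm7 was at 39.2, 27.9 and 47.4 CPM in OPCs and 17.8 CPM in MOL5/6. In cycling OPCs the 6 genes together were missing from control vOLCs apart from 4 UMIs of Mcm7.

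Genes of nucleotide supply differed among themselves. Rrm1, the large subunit of ribonucleotide reductase, was at 31.6, 38.0 and 34.9 CPM in OPCs and at 203, 0 and 276 CPM in cycling OPCs. Rrm2, its regulated small subunit, was confined more closely to the cycling cells, with 24 of 36 UMIs there (66.7%, 49.0 to 81.4). Tyms, thymidylate synthase, was at 19.8, 22.8 and 21.6 CPM in OPCs, at 156, 0 and 149 CPM in cycling OPCs and at 2.36 CPM in MOL5/6. Pcna, the sliding clamp of the replication fork, was the exception among the 10 genes. Its level was 41.1, 58.3 and 48.2 CPM in OPCs, but 63.7 CPM in MOL5/6 and 74.1 CPM in MOL2, so that Pcna was higher in mature cells than in OPCs that were not cycling.

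The share of cells with several S, G2 or M phase genes was counted over the annotated OPCs. Their clusters had been made from these same data, possibly with the genes counted, so that the share is a description. At least 2 of the 28 mitotic and replication genes were found in 145 of 870 OPCs, cycling cells included, in control dOLCs (16.7%, 14.2 to 19.3). The share was 23 of 124 for control vOLCs (18.5%, 12.1 to 26.5) and 77 of 341 for ectopic vOLCs (22.6%, 18.3 to 27.4). In MOL5/6 the shares were 11.0%, 16.2% and 15.7% at a greater depth. Thinned to 1000 UMIs per cell, they were 5.40%, 6.45% and 7.92% in OPCs and 0.794%, 0.535% and 0.814% in MOL5/6. At equal depth the share was thus higher in OPCs than in MOL5/6 in each library, with intervals that did not overlap, while the intervals of the 3 libraries overlapped for OPCs. With the cycling cells left out, the thinned shares in OPCs were 3.63%, 4.13% and 5.76%, and for control vOLCs the interval (1.36 to 9.38) then overlapped that of MOL5/6 (0.110 to 1.55).

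The cycling cells differed in their balance of replication and mitotic transcripts. Cells held 3 to 65 UMIs of the mitotic genes, with a median of 23, and 0 to 16 of the replication genes, with a median of 1. Of the 31 cells, 10 had no UMI of a replication gene, 12 had UMIs of at least 5 replication genes, and 3 had more replication than mitotic UMIs. The 17 cells with at least 20 mitotic UMIs included 9 with 0 or 1 replication UMI and 6 with at least 5 replication genes. The median replication count was 1, 1 and 6, and the median mitotic count was 26, 10 and 17. The ranges of both counts overlapped among the libraries. In 1 cycling cell of control dOLCs, 65 UMIs of mature oligodendrocyte markers were found beside 13 mitotic and 26 OPC marker UMIs, whereas the next highest cell had 25.

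**Figure D3:**
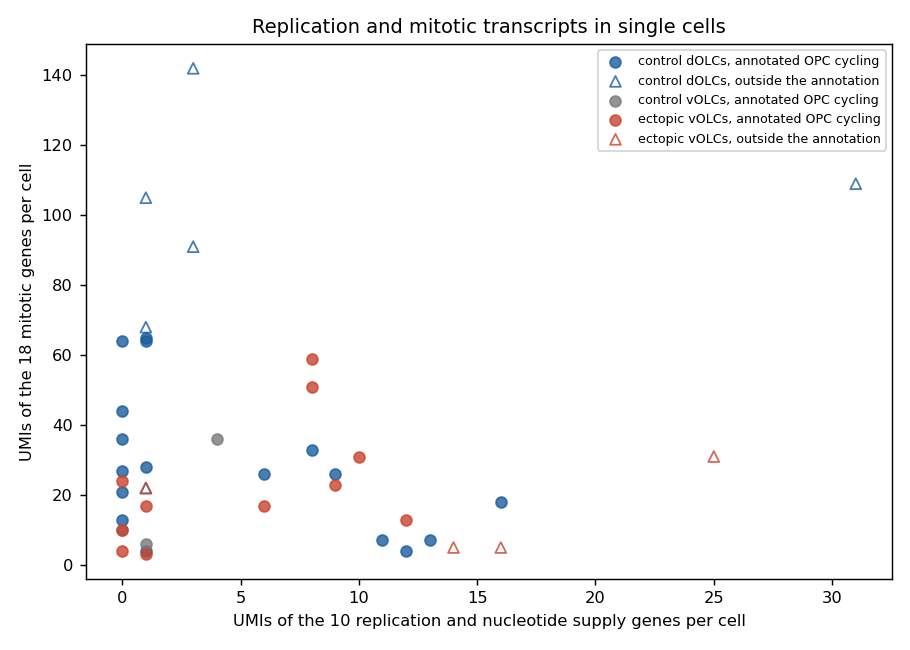
UMIs of the 10 replication genes (x axis) against UMIs of the 18 mitotic genes (y axis) in single cells, coloured by library; filled circles are the 31 annotated cycling OPCs and open triangles 10 barcodes outside the annotation. Cells with many mitotic UMIs lie both at 0 to 1 replication UMI and further right, and 4 triangles lie above 90 mitotic UMIs.

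The authors kept cells with over 200 and under 3000 genes. Among the 790 barcodes this and the mitochondrial limit removed, 10 had more OPC than mature oligodendrocyte marker UMIs and at least 3 mitotic genes, and they numbered 6, 0 and 4. All 10 had 3018 to 4900 genes and 6142 to 14166 UMIs. They held 600 mitotic UMIs, which is 43.1% of those in these barcodes and the 31 cycling cells together, and 4 of them had at least 90 mitotic UMIs, a count that no annotated cell reached. None was among the 6% of barcodes of its library with the highest Scrublet doublet score, and whether they were doublets was not tested otherwise. With OPCs defined by the same markers among all barcodes, the share with at least 3 mitotic genes was 2.82% (23 of 816), 2.29% (3 of 131) and 4.19% (16 of 382), against 2.14% (17 of 793), 2.42% (3 of 124) and 3.58% (12 of 335) in the kept cells.

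D cyclins, with their partner kinase Cdk4, were the most abundant cell cycle transcripts of OPCs outside the cycling cluster, apart from H2afz. Ccnd1 was at 336, 332 and 451 CPM in OPCs and at 702, 884 and 658 CPM in cycling OPCs. It dropped to 9.52 CPM in the next stage, COP/NFOL/MFOLa, and was between 9.64 and 14.9 CPM in the later clusters of the libraries together. Ccnd1 thus marked OPCs against all later stages in each library. Ccnd2 was at 70.8, 93.7 and 130 CPM in OPCs and at 1.36 CPM in COP/NFOL/MFOLa. In MFOLb it was at 31.1 CPM, where the 6 astrocyte markers summed to 1851, 2264 and 1447 CPM, against 379 to 497 CPM in OPCs, and their part in this level was not tested. Ccnd3 was at 62.5, 93.7 and 85.7 CPM in OPCs and at 18.6 CPM in MOL5/6.

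Cdk4, the kinase of the D cyclins, stayed high in the next stage. It was at 154, 106 and 183 CPM in OPCs, 140 CPM in COP/NFOL/MFOLa and 71.2 CPM in MOL5/6. Cdk6, its close relative, had 35 UMIs in OPCs, 3 in MOL5/6 and 0 in the 31 cycling cells, which allows a share of up to 10.003% of its UMIs there. Among the E cyclins and Cdk2, which act at the entry to S phase, Cdk2 was at 19.8, 35.5 and 14.1 CPM in OPCs. Ccne1 and Ccne2 had 16 and 19 UMIs in OPCs and 5 and 8 in the cycling cells, a share of 23.8% and 29.6%.

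In ectopic vOLCs against control dOLCs, 11 of the 41 genes passed the filter for ratios in OPCs (at least 50 UMIs in the compared cells and a UMI in at least 10% of cells of a library). No mitotic gene and no E cyclin passed, and of the replication genes Mcm7, Pcna and Rrm1 did. The log2 ratio of CPM was above 0 for 10 of the 11, with a median of 0.27 beside 0.08 over all 6110 genes compared. It was past 0.5 in either direction for 3 genes, where 15.9% of all genes were. It was at least 0.5 for Ccnd2 and Hmgb2, where 8.48% of all genes reached this, and at most -0.5 for Cdkn1c, where 7.45% did. Hmgb2, Rrm1 and Cdkn1b reached a UMI in 10% of cells in ectopic vOLCs alone, where each was higher, so that these counts are partly set by the filter. Over the 36 genes with a UMI in each library the median was 0.24.

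**Figure D4:**
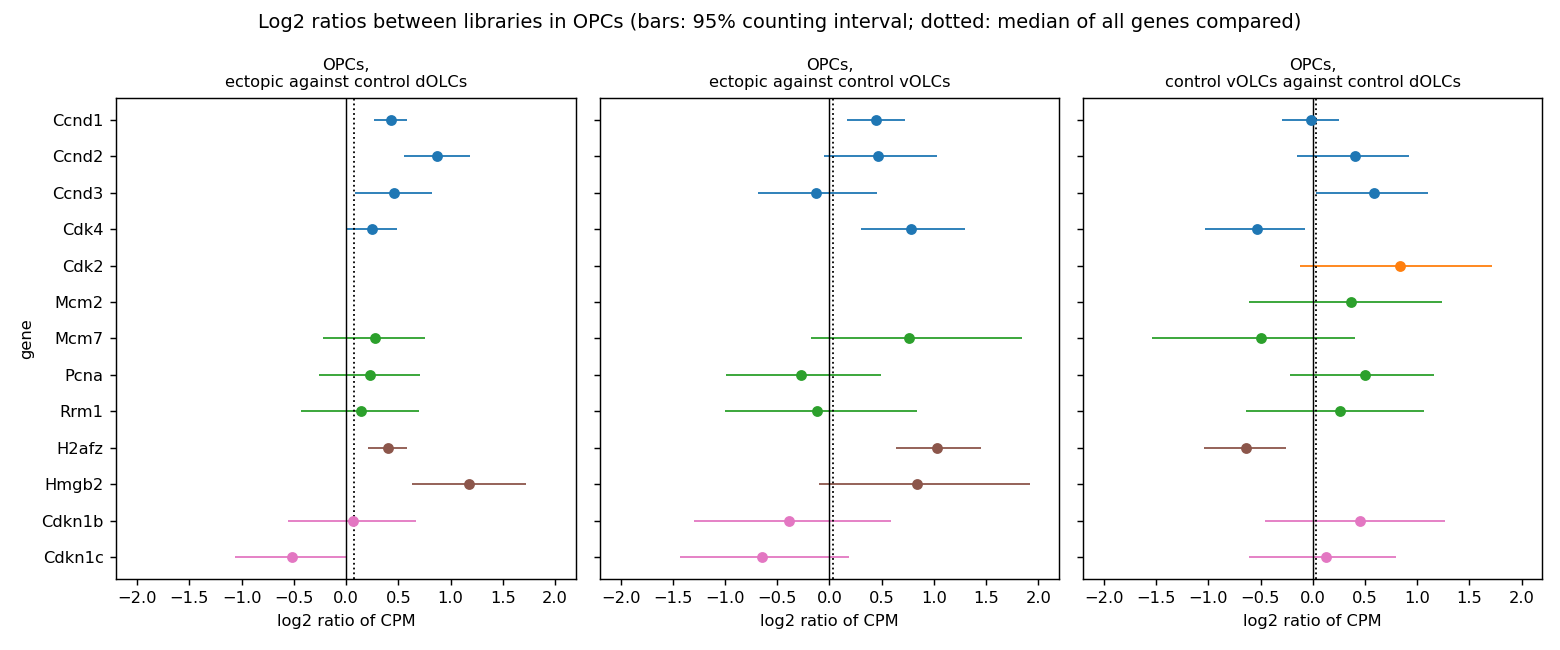
Log2 ratio of CPM between libraries in OPCs for each gene past the filter in 3 comparisons, with 95% counting intervals; the dotted line is the median of all genes compared. Ccnd1, H2afz and Cdk4 lie above 0 in ectopic vOLCs against either control, whereas Ccnd3 lies above 0 against control dOLCs and below 0 against control vOLCs.

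All 3 D cyclins and Cdk4 had higher levels in OPCs of the ectopic library than in those of control dOLCs, at log2 ratios of 0.43 (0.27 to 0.58) for Ccnd1, 0.87 (0.56 to 1.19) for Ccnd2, 0.46 (0.09 to 0.82) for Ccnd3 and 0.25 (0.00 to 0.49) for Cdk4. Against control vOLCs they were 0.44 (0.16 to 0.73) for Ccnd1, 0.47 (-0.06 to 1.03) for Ccnd2, -0.13 (-0.68 to 0.45) for Ccnd3 and 0.78 (0.30 to 1.29) for Cdk4. Ccnd1 thus differed from each control beyond counting error, Cdk4 from control vOLCs, and Ccnd2 and Ccnd3 from control dOLCs, while for Cdk4 against control dOLCs the lower bound lay at 0.00. Both comparisons share the ectopic library. Cdk6, below the filter, was at -0.81 (-2.40 to 0.53) against control dOLCs on 6 and 23 UMIs and -1.61 (-3.51 to 0.30) against control vOLCs, and both intervals contained 0. A UMI of Ccnd1 was found in 54.7%, 57.9% and 70.9% of OPCs.

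The chromatin genes H2afz and Hmgb2 are known for high levels in dividing cells. H2afz, a histone variant, was at 240, 155 and 316 CPM in OPCs, at 1154, 1515 and 2526 CPM in cycling OPCs and at 176 CPM in MOL5/6. In OPCs, ectopic vOLCs exceeded control dOLCs by a log2 ratio of 0.40 (0.21 to 0.58) and control vOLCs by 1.03 (0.64 to 1.45). Hmgb2, a DNA-bending protein, was at 22.1, 27.9 and 49.9 CPM in OPCs, with a UMI in 6.10%, 6.61% and 14.5% of cells. Ectopic OPCs exceeded those of control dOLCs by a log2 ratio of 1.18 (0.63 to 1.72) and those of control vOLCs by 0.84 (-0.10 to 1.92). At 1000 UMIs per cell, the first of these was 0.09, on 7 UMIs against 17. Of all 50-base stretches in the last 400 bases of their transcripts, 35.5% for Hmgb2 and 26.4% for H2afz also occurred in transcripts of other genes, most of them predicted genes, so that their counts are less certain; the same holds for Ccnb1 (34.8%), Mcm7 (31.0%) and Rrm2 (11.5%).

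Of the replication genes, those past the filter had intervals around 0 in both comparisons of the ectopic library. In ectopic vOLCs against control dOLCs, the log2 ratio was 0.27 (-0.22 to 0.75) for Mcm7, 0.23 (-0.26 to 0.70) for Pcna and 0.14 (-0.43 to 0.70) for Rrm1, and each interval contained 0. Thinned to 1000 UMIs per cell, Pcna turned to -0.78, on 7 UMIs against 31. Against control vOLCs the ratio was 0.77 (-0.18 to 1.85) for Mcm7, -0.27 (-0.99 to 0.49) for Pcna and -0.12 for Rrm1, whose interval also contained 0. These intervals leave room for differences of up to 1.85 on the log2 scale. Between the controls, Mcm5, below the filter, was higher in control vOLCs, with 35.5 CPM against 14.9 and a log2 ratio of 1.26 (0.26 to 2.17), on 14 and 39 UMIs.

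Among genes past the filter, 11 in ectopic vOLCs against control vOLCs gave 4 log2 ratios of at least 0.5 (21.8% of 5721 genes did) and 1 of at most -0.5 (13.5%), with 35.3% of all genes past 0.5 in either direction. Of these 4, Mcm7 and Hmgb2 reached the share of cells asked by the filter in ectopic vOLCs alone, where each was higher. The count of 4 is therefore partly set by the filter. In control vOLCs against control dOLCs, 12 passed, of which Ccnd3, Cdk2 and Pcna had ratios of at least 0.5 (14.7% of 5863 genes) and Cdk4 and H2afz of at most -0.5 (15.4%), with 30.1% of all genes past 0.5 in either direction. For Cdk4 this was -0.54 (-1.03 to -0.08), for H2afz -0.63 (-1.04 to -0.25) and for Ccnd3 0.59 (0.03 to 1.11), and the interval of Cdk2 and Pcna contained 0. Between the controls, Cdk2, Mcm2, Rrm1 and Cdkn1b reached the share of cells asked by the filter in control vOLCs alone, where each was higher. Mcm7 reached it in control dOLCs alone, where it was higher. The ratios of at least 0.5 between the controls, which include Cdk2, are thus also partly set by the filter. Ccnd1 was alike in the controls, with a log2 ratio of -0.02 (-0.29 to 0.25). Only 121 OPCs of control vOLCs were available.

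Other genes that moved in the same OPCs are given beside these differences. Of 13 genes known to respond to dissociation and stress, 7 had a ratio above 0 in ectopic vOLCs against control dOLCs and 5 below 0, and 1 had no UMI. The 5 that passed the filter were above 0, whereas below it Btg2 was at 0.80 (0.20 to 1.40), Hspa1a at -0.65 (-1.39 to 0.03) and Hspa1b had 0 UMIs against 11. Immediate early gene Fos was at 208, 177 and 303 CPM and Jun at 269, 236 and 385 CPM in OPCs. The log2 ratio against control dOLCs was 0.54 (0.34 to 0.73) for Fos, 0.52 (0.35 to 0.69) for Jun, 0.57 (0.13 to 1.01) for Ier2 and 0.58 (0.22 to 0.94) for Dusp1. Their part in the higher D cyclin levels was not tested, nor was that of the mature oligodendrocyte transcripts in control dOLCs.

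Other genes of the cell cycle were compared in the same OPCs of ectopic vOLCs and control dOLCs. Of 19 genes of E2F factors, pocket proteins and the MuvB complex, 4 passed the filter and none reached 0.5 in either direction. E2f4, E2f5 and Lin37 among these passed through ectopic vOLCs alone, as did Orc6 of the next list, Sesn1 of the p53 targets and Ier2 of the stress genes. Of 15 genes of origin licensing and firing, 2 passed (Orc6 and Gins4), and of 16 genes of checkpoints, Cdc25 phosphatases and the anaphase-promoting complex, 2 passed (Fzr1 and Cdkn2d), none of them at 0.5 or more in either direction. Of 8 p53 targets, 4 passed, again none past 0.5. The pro-apoptotic gene Bax had the largest ratio of these 4, at 172, 139 and 218 CPM and a log2 ratio of 0.34 (0.12 to 0.56). Below the filter, single genes of these lists lay further apart in both directions. Orc2 was at 14.1, 15.2 and 27.4 CPM, on 37, 6 and 33 UMIs. Cdc25a was at 9.90, 2.53 and 2.50 CPM, on 26, 1 and 3 UMIs. Both were named after their values were seen.

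Among the Cdk inhibitors, Cdkn1b (p27) was flat across stages, at 27.8, 38.0 and 29.1 CPM in OPCs and between 20.9 and 33.6 CPM in the later clusters. Its ratio in OPCs did not differ from 0 beyond counting error in any comparison. Cdkn1c (p57) was at 48.8, 53.2 and 34.1 CPM in OPCs, with 2 UMIs in the 31 cycling cells, at 38.7 CPM in MOL2 and 10.3 CPM in MOL5/6. In OPCs the ectopic library gave a log2 ratio of -0.52 (-1.06 to 0.00) to control dOLCs and of -0.64 (-1.43 to 0.19) to control vOLCs, and thinned to 1000 UMIs per cell the second turned to 0.77, on 14 UMIs against 3.

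Cdkn1a (p21), an inhibitor induced by p53, had a lower level in ectopic vOLCs after the OPC stage. It was singled out after its values were seen and passed the filter in no comparison, since a UMI was found in under 10% of the OPCs and of the MOL5/6 cells. In OPCs it had 22, 1 and 12 UMIs, or 8.38, 2.53 and 9.98 CPM. Over the libraries together, 11 of its 46 UMIs in OPC and OPC cycling cells lay in the cycling cells (23.9%, 12.6 to 38.8). They were in 7 of 31 cycling cells. The level of Cdkn1a there was 92.3 CPM, against 8.29 CPM in OPCs, a log2 ratio of 3.48 (2.35 to 4.49). In all later clusters together, control dOLCs had 331 UMIs in 276 of 4934 cells (16.2 CPM). Control vOLCs had 59 UMIs in 49 of 801 cells (13.3 CPM), and ectopic vOLCs had 12 UMIs in 11 of 2221 cells (0.920 CPM). The controls were close to each other and ectopic vOLCs were far below. Against control dOLCs, the ectopic library had a log2 ratio of -4.14 (-5.11 to -3.32), and against control vOLCs one of -3.85 (-4.88 to -2.94), while the controls differed by -0.29 (-0.72 to 0.11), control vOLCs being lower. Of the 9 clusters after the OPC stage, the ectopic level was below that of control dOLCs in 9 and below that of control vOLCs in 8, and it was at 0 UMIs in 5. In OPCs, ectopic vOLCs and control dOLCs gave a log2 ratio of 0.25 (-0.90 to 1.33), and whether the OPC and later ratios differ was not tested across mice, which are pooled.

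Comparisons of mature cells depend on which clusters hold them. MOL5/6 of ectopic vOLCs lay mostly in MOL5/6a (900 cells) and MOL5/6d (837), with 42 cells in MOL5/6b and 63 in MOL5/6c, whereas control dOLCs had 333, 569, 1947 and 928 cells in MOL5/6a, MOL5/6d, MOL5/6b and MOL5/6c. In MOL5/6 as a whole, 5 of the 41 genes passed the filter in ectopic vOLCs against control dOLCs and none reached 0.5 in either direction (2.05% of 5218 genes were at 0.5 or above, 14.8% at -0.5 or below and 16.9% past either). The log2 ratios were 0.05 (-0.22 to 0.32) for Ccnd3, 0.09 (-0.05 to 0.23) for Cdk4, 0.06 (-0.09 to 0.20) for Pcna, 0.22 (0.13 to 0.30) for H2afz and -0.36 (-0.58 to -0.15) for Cdkn1b. Within MOL5/6a, H2afz turned to -0.27 (-0.49 to -0.05), and within MOL5/6d it was 0.02 (-0.10 to 0.15). For Cdkn1b the interval contained 0 within each of these clusters, and also in MOL5/6 as a whole with median of ratios size factors. With those factors Cdk4 was at 0.25 (0.12 to 0.39) and Pcna at 0.22 (0.07 to 0.37) in MOL5/6 as a whole, both past 0. Within MOL5/6a and within MOL5/6d, the CPM ratios of both genes had intervals that contained 0.

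Cdkn1a and Cdkn1c were lower in ectopic vOLCs within both clusters. For Cdkn1a the log2 ratio was -3.61 (-6.08 to -1.72) within MOL5/6a, on 3 and 12 UMIs, and -4.23 (-5.73 to -3.03) within MOL5/6d, on 6 and 65. For Cdkn1c, below the filter, it was -0.97 (-1.38 to -0.56) in MOL5/6 as a whole, -1.35 (-2.42 to -0.26) in the cells of MOL5/6a and -0.79 (-1.39 to -0.19) in those of MOL5/6d. Ccnd1, also below the filter, was at 11.8 CPM in control dOLCs and 7.47 CPM in ectopic vOLCs, with a log2 ratio of -0.66 (-1.06 to -0.27). Split by cluster, MOL5/6a gave -0.47 (-1.28 to 0.40) and MOL5/6d -0.88 (-1.60 to -0.16). For Mcm6 the ratio was -1.20 (-1.94 to -0.51) as a whole, -1.03 (-2.68 to 0.74) for MOL5/6a alone and -1.21 (-2.42 to -0.04) for MOL5/6d alone. Birc5 had a ratio of -2.03 (-4.03 to -0.49) as a whole, on 4 and 23 UMIs, and its interval contained 0 within each cluster. Top2a had 0 UMIs against 15 as a whole, but 0 against 1 in MOL5/6a and 0 in MOL5/6d of both libraries. Cdkn1c, Ccnd1, Mcm6, Birc5 and Top2a were named here after their values were seen, and all were picked among genes that were lower. In the other cell cycle lists, genes below the filter had intervals past 0 in both directions. Examples in MOL5/6 are Pkmyt1 at 0.68 (0.35 to 1.01) and Rbl2 at -0.57 (-0.84 to -0.31), also named after their values were seen.

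Other p53 targets and stress genes are given beside Cdkn1a for the same cells. Of the 8 p53 targets, 5 passed the filter in MOL5/6, with log2 ratios between -0.23 and 0.03. Below it, Trp53inp1, which promotes p53-dependent cell death, had a ratio of -1.08 (-1.61 to -0.58), but -0.35 (-1.96 to 1.51) for MOL5/6a alone and -0.23 (-1.13 to 0.69) for MOL5/6d alone. Of the 13 dissociation and stress genes, 10 had a ratio below 0 in MOL5/6, and 8 with median of ratios size factors. The filter was not passed by 10 of the 13 genes. Over all 5218 genes compared, the median log2 ratio was itself below 0, at -0.03. The ratio of Junb was -0.83 (-1.30 to -0.37) in MOL5/6, -1.35 (-2.42 to -0.26) for MOL5/6a alone and -0.13 (-0.91 to 0.67) for MOL5/6d alone. That of Hspa1b was -1.38 (-2.03 to -0.76) in MOL5/6, and its interval contained 0 within each cluster. Fos was at -0.40 (-0.65 to -0.15), Ier2 at -0.55 (-1.05 to -0.06) and Nr4a1 at -0.39 (-0.70 to -0.08), and all 3 intervals contained 0 with those size factors and within each cluster. Trp53inp1 and Hspa1b were likewise named after their values were seen. The part of these genes in the lower Cdkn1a level was not tested.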

How the data were processed

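Sorted OLCs were profiled by 10x 3′ single-cell RNA sequencing, 1 library per condition. The authors deposited raw UMI counts per gene and cell with an annotation of library, cluster, genes and percent of mitochondrial counts, the last a percentage computed by the authors from the counts of each cell. The submitters' processing notes name mm10, Cell Ranger 2.1.1 and Seurat 3 and 4.0. The authors kept cells with over 200 and under 3000 genes and at most 15% mitochondrial counts. The 3 libraries had 5804, 925 and 2562 kept cells with 23078181, 4846391 and 14293675 UMIs. The 4 P0 samples, which mix genotypes, were not analysed here.

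The members and lists were chosen with earlier results of these data known. For each cluster and library, UMIs were added up and scaled to 1000000 (CPM). All 41 members are named, and those with at least 50 UMIs over OPC and OPC cycling cells are given in every library. Genes of other lists could be named if they had at least 100 UMIs over these cells or were, beyond these, among the 3 largest ratios past the filter of their list. Hspa1b, Trp53inp1 and other genes of these lists marked as named after their values were seen were exceptions. Shares carry Clopper-Pearson intervals, levels Poisson intervals and ratios conditional exact binomial intervals, all at 95%, which cover counting error only. With 1 library per condition no p-value is given, and depth per cell limits what can be detected. No cell was removed as a doublet; Scrublet scores from scanpy 1.11.5 served for an alternative. Alternatives were TMM factors (edgeR 4.0.16), median of ratios factors as in DESeq2, no filter, mean CPM per cell, thinning to 1000 UMIs (0 OPCs were shallower), 10% mitochondrial counts and other counts of members; those added after the data were seen are named. The ratio steps were tested on simulated data. Other tools were R 4.3.3, Python 3.11.15, numpy 2.4.6, scipy 1.17.1, pandas 2.3.3 and matplotlib 3.10.9.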

Additional observations from a re-analysis of the deposited data

Results flagged for a closer look

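A signal was found in data outside the annotation. Of the 790 barcodes that the authors' filter removed, 10 had more OPC than mature marker UMIs and at least 3 of the 18 mitotic genes, and all 10 had over 3000 genes, the upper limit. They were 6 barcodes of control dOLCs and 4 of ectopic vOLCs, and the removed barcodes with OPC markers numbered 23, 7 and 47 in the 3 libraries (control dOLCs, control vOLCs, ectopic vOLCs). A further 7 removed barcodes had at least 3 mitotic genes without an excess of OPC markers, with at most 25 mitotic UMIs each. The share of cycling OPCs read from the annotation therefore leaves out the barcodes with the most mitotic UMIs.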

How the results depend on the processing

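No paired analysis was possible because a condition has a single library, and leaving a replicate out was not possible for the same reason. Leaving out the highest Scrublet scores, a limit of 10% mitochondrial counts, leaving out shared barcodes and the classification by markers kept the share of cycling OPCs within its interval in every library. Over all cells of a library that share was 0.293%, 0.324% and 0.429% (control dOLCs, control vOLCs, ectopic vOLCs, as below). The share of OPCs with several S, G2 or M phase genes depends on how many are asked for: with at least 1 it was 43.9%, 50.8% and 53.1%, with at least 3 it was 8.16%, 12.9% and 12.9%, thinned to 1000 UMIs 5.40%, 6.45% and 7.92%, and with at least 2 of the mitotic genes, an alternative added after the data were seen, 2.99%, 2.42% and 4.11%. The order of the libraries thus changed with the genes counted. The median of the genes past the filter moved to 1.01 for OPCs of ectopic vOLCs against control vOLCs when cells were thinned to 1000 UMIs, which leaves few UMIs in 121 cells, and in MOL5/6 to 0.22 with median of ratios size factors, which raise every ratio there by 0.16. Within MOL5/6a, an alternative added after the data were seen, H2afz in mature cells of ectopic vOLCs against control dOLCs went from 0.22 to -0.27, and the median of the 5 genes past the filter from 0.06 to -0.24 there and to -0.07 within MOL5/6d. Of 64 alternative values of the shares and medians 48 stayed within the interval of the value reported, and of 300 alternative values of single genes 273 did. Thinning gave 14 of the remaining single-gene values, 4 of them with the opposite sign, among them Pcna in ectopic vOLCs against control dOLCs, which went from 0.23 to -0.78 on 7 UMIs against 31. With cycling cells added to OPCs, H2afz in that comparison went from 0.40 to 0.61. Without the cell with the most UMIs of the members in each library, the median was 0.28, and without shared barcodes 0.26, both added after the data were seen. The spread between mice cannot be estimated from 1 library per condition.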
